A study of Mus musculus with 6 samples.

Results

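The genes described here are 10 members of the negative feedback and output of fibroblast growth factor (FGF) signalling: the Sprouty genes Spry1, Spry2 and Spry4, the Sprouty-related genes Spred1, Spred2 and Spred3, the MAP kinase phosphatase genes Dusp5 and Dusp6, and the Ets transcription factor genes Etv4 and Etv5. They were chosen by name, with earlier results of these data known. Their probes were found through the RefSeq accession of each array probe, which gave 11 of the 39429 non-control probes. Etv4 had 2 probes and every other member had 1. Of the 10 members, 9 could be tested, among 19795 tested genes in all. No array showed Spry4 well above background.

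Transcripts were measured in mouse trunks dissected on embryonic day 9.5, in a piece that ran from the otic vesicle down to somite 15 and kept the forelimb buds. The study compared wild-type embryos with Arid3b-null embryos, which lack a transcription factor with an AT-rich DNA-binding domain, and the comparison addresses which transcripts differ when that factor is missing. Each group had 3 one-colour arrays, and RNA from 4 embryos was pooled for each array, so errors describe the spread between pools and not between embryos. The strain, the sex of the embryos, the design of the null allele and any other allele are not given in the sources used here, and no treatment is named.

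An FGF binds its receptor together with heparan sulfate, and the receptor then activates Ras and the kinase cascade that ends in ERK. ERK signalling turns on Etv4 and Etv5, and it also turns on its own inhibitors: Sprouty and Spred proteins act on the cascade near Ras and Raf, and DUSP5 and DUSP6 remove the activating phosphates from ERK. In the embryonic trunk and limb bud these genes are commonly read as a record of where FGF signals are received, around the limb ridge, the tail-end mesoderm and the growing epithelia.

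Values are log2 processed signals relative to the array's 75th percentile, so a value of 0 is a signal equal to that percentile, and a change is the Arid3b-null value minus the wild-type value. That percentile lay between 611 and 844 signal units, and 61.6% to 68.8% of spots were well above background on the 6 arrays. Arrays of 1 group correlated at 0.989 to 0.994 over genes and arrays of different groups at 0.968 to 0.983. The targeted gene, Arid3b, fell on each of its 3 probes: the brightest by 1.69 ± 0.17 on the log2 scale (SE, n = 3 per group, limma adjusted p = 0.00154), and the dimmer ones by 3.23 ± 0.20 and 1.90 ± 0.18 (tested over all probes, limma adjusted p = 3.79e-04 and 0.00130). Each of the 3 slides held the wild-type and the Arid3b-null array of the same replicate number, with wild type always in position 1 and Arid3b-null always in position 2, so array position and genotype cannot be told apart.

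In the Arid3b-null trunks Spred3, Dusp5 and Spred2 rose, none of the members fell, and the other 6 tested members did not pass the test. Spred3 rose 2.01-fold, Dusp5 1.95-fold and Spred2 1.36-fold. The fit did not pair the arrays of a slide. With the replicate number, which pairs them, as a block the Spred2 call was lost (limma adjusted p = 0.0515). The brightly expressed members Dusp6, Etv4 and Etv5 differed by 1.23-fold, 1.09-fold and 1.03-fold, and none of these differences passed. That is 3 of 9 tested members called, or 33.3%, where 26.6% of all tested genes were called in either direction and 13.6% rose. The count is a description: Spred3 and Dusp5 passed the background limit on 2 of the 3 wild-type arrays and on all 3 Arid3b-null arrays, so they entered the test only through the group in which they were higher. Of the 301 tested genes with that same detection pattern, 31.6% rose. Among the 7 tested members that were well above background on all 6 arrays, 1 rose, which was Spred2.

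**Figure D1:**
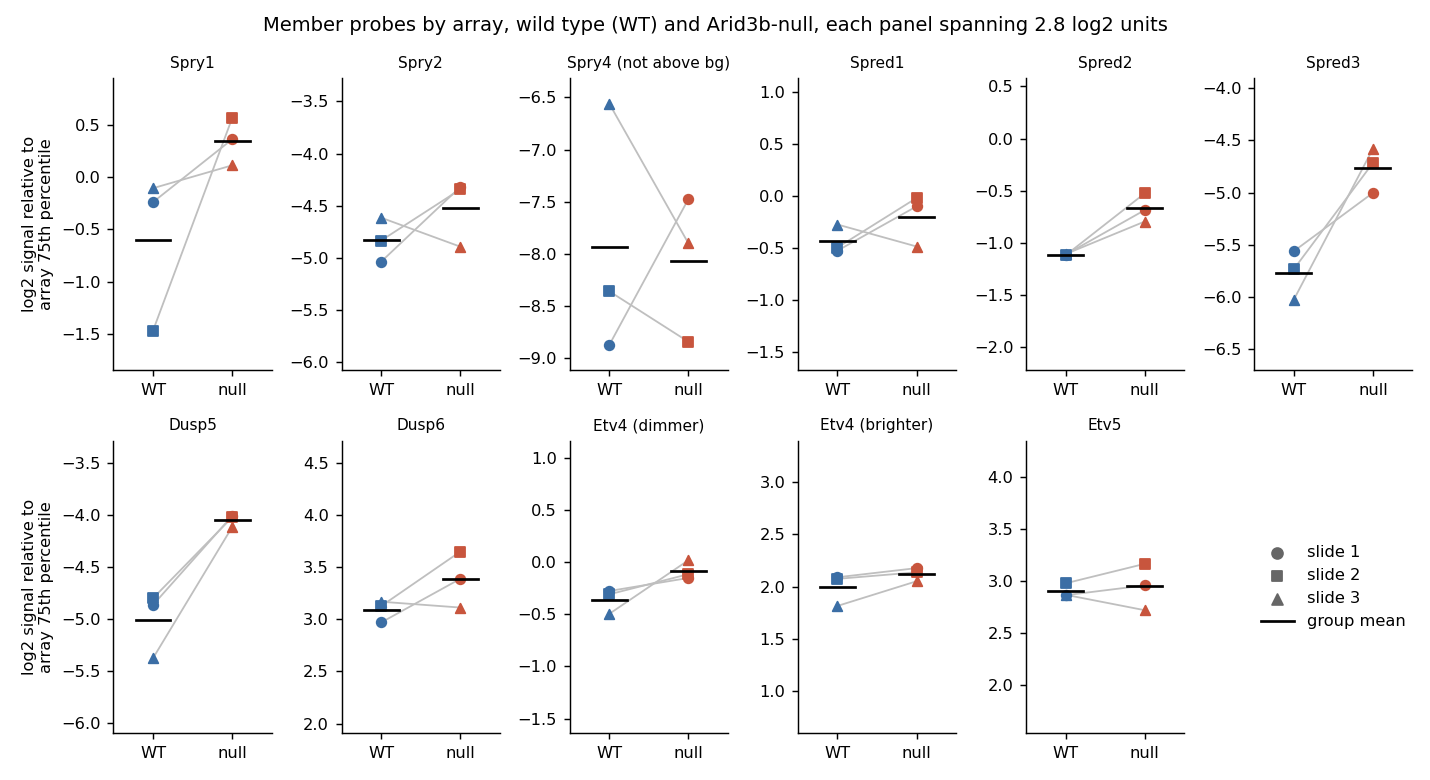
Log2 processed signal relative to the array's 75th percentile (vertical axis) for the 11 probes of the 10 members on each of the 6 arrays, with lines joining the 2 arrays of a slide. Spred3, Dusp5 and Spred2 lie higher on all 3 Arid3b-null arrays than on any wild-type array, Spry1 does so too but with 1 low wild-type array at -1.47, and Etv5 and the brighter Etv4 probe overlap between groups.

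The Sprouty genes encode membrane-associated inhibitors that restrain receptor tyrosine kinase signalling to ERK. Spry1 read -0.24, -1.47 and -0.10 in wild-type replicates 1, 2 and 3, and 0.36, 0.57 and 0.11 in the Arid3b-null replicates. The processed signals behind these values were 716, 221 and 569 units in wild type and 805, 916 and 724 units in Arid3b-null. Wild-type replicate 2 stood well below the other arrays of its group, and the groups did not overlap. The means were -0.60 ± 0.75 and 0.35 ± 0.23 (SD, n = 3 each), a change of 0.95 ± 0.36 (SE) that did not pass the test (limma adjusted p = 0.0982). The 95% interval of the change ran from 1.06-fold to 3.53-fold. Without wild-type replicate 2 the change was 0.52, or 1.44-fold (limma adjusted p = 0.0870). A wild-type SD that large or larger was found in 2.92% of tested genes. With another background correction, normexp with the array's median background, the change was 0.90 and passed (limma adjusted p = 0.0482). Under that correction 22.9% of all tested genes were called.

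Spry2, which in the embryo is an FGF-induced Sprouty of limb and airway epithelium, was a dim probe here. It read -5.04, -4.84 and -4.62 in wild type and -4.32, -4.34 and -4.89 in Arid3b-null, from signals of 25.7, 21.5 and 24.9 units against 31.3, 30.4 and 22.5 units. The groups overlapped, because Arid3b-null replicate 3 lay below wild-type replicates 2 and 3. The change of 0.31 ± 0.20 (SE) did not pass (limma adjusted p = 0.286), and its 95% interval of 0.897-fold to 1.71-fold includes no difference. Spry4 gave 1.80, 1.86 and 6.48 signal units in wild type and 3.51, 1.34 and 2.796 units in Arid3b-null, not well above background on any of the 6 arrays, so no fold is given for it.

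The Spred proteins bind Ras and, through neurofibromin, hold back the step from Ras to Raf. Spred1 read -0.52, -0.49 and -0.27 in wild type and -0.10, -0.02 and -0.48 in Arid3b-null. Replicates 1 and 2 were higher in Arid3b-null than any wild-type array and replicate 3 was not, so the groups overlapped. The change of 0.23 ± 0.16 (SE) did not pass (limma adjusted p = 0.320; 95% interval 0.906-fold to 1.52-fold).

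Spred2 read -1.12, -1.12 and -1.11 in wild type and -0.69, -0.53 and -0.80 in Arid3b-null, from signals of 390, 282 and 283 units against 388, 429 and 385 units. All 3 Arid3b-null arrays were higher than the wild-type arrays, which lay almost on one value. The means were -1.12 ± 0.0059 and -0.67 ± 0.14 (SD, n = 3 each), and Spred2 rose by 0.45 ± 0.11 (SE, limma adjusted p = 0.0271; 95% interval 1.14-fold to 1.63-fold). Only 0.116% of tested genes had a wild-type SD as small as this or smaller, against a median SD of 0.159 over all tested genes. The replicate numbers pair the arrays by slide, and with the replicate number as a block the call was lost (limma adjusted p = 0.0515). That blocked fit called 2 of the 9 tested members, Spred3 and Dusp5, and 24.1% of all tested genes. Leaving out any 1 array other than Arid3b-null replicate 3 also ended the call, with adjusted p-values up to 0.0896 and changes of 0.37 to 0.45. Without Arid3b-null replicate 3 the change was 0.51 and passed (limma adjusted p = 0.0354).

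Spred3, the Spred protein without the domain through which the other members of its family bind the KIT receptor, was dim. It read -5.56, -5.74 and -6.03 in wild type and -5.003, -4.72 and -4.58 in Arid3b-null, from signals of 17.9, 11.5 and 9.36 units against 19.5, 23.5 and 27.96 units. The groups did not overlap and the difference was found on each slide, at 0.56, 1.02 and 1.45. Spred3 rose by 1.01 ± 0.17 (SE, limma adjusted p = 0.00774; 95% interval 1.52-fold to 2.67-fold). These few signal units above background set how far the fold can be read: with the array's median background and the normexp correction the change was 0.28, or 1.22-fold, and did not pass (limma adjusted p = 0.106).

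DUSP5 is the nuclear phosphatase of ERK and its gene is turned on by ERK itself. Dusp5 read -4.86, -4.80 and -5.37 in wild type and -4.01, -4.02 and -4.12 in Arid3b-null, from signals of 29.0, 22.02 and 14.8 units against 38.8, 38.0 and 38.6 units. The Arid3b-null arrays were alike and all higher, and wild-type replicate 3 was the lowest. Dusp5 rose by 0.96 ± 0.17 (SE, limma adjusted p = 0.00908; 95% interval 1.47-fold to 2.58-fold), with within-slide changes of 0.85, 0.78 and 1.26. With the array's median background and normexp the change was 0.29, or 1.23-fold, and did not pass (limma adjusted p = 0.111).

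DUSP6 is the cytoplasmic phosphatase of ERK and the member most used as a readout of FGF signalling in limb buds. Dusp6 read 2.97, 3.13 and 3.17 in wild type and 3.39, 3.65 and 3.11 in Arid3b-null, from signals of 6615, 5347 and 5497 units against 6545, 7751 and 5783 units. Arid3b-null replicates 1 and 2 were higher than every wild-type array, and replicate 3 lay among them. The means were 3.09 ± 0.10 and 3.38 ± 0.27 (SD, n = 3 each), and the change of 0.30 ± 0.16 (SE) did not pass (limma adjusted p = 0.212). Its 95% interval, 0.945-fold to 1.59-fold, leaves out a 2-fold difference in either direction.

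Promoter sequence was looked at for the 3 members that rose and for Dusp6, the bright ERK phosphatase gene that did not pass. They are shown so that called members can be read beside a common FGF readout. Their changes were not tested against each other. The lines give the 250 bases before the annotated start, 5′ to 3′ on the gene's strand, from RefSeq for build GRCm38.p6: Spred2 at chr11:19924192-19924441 (plus strand), Spred3 at chr7:29168648-29168897 (minus strand), Dusp5 at chr19:53528895-53529144 (plus strand) and Dusp6 at chr10:99262981-99263230 (plus strand). Capitals mark the Pea3 motif of the Etv4 and Etv5 subfamily, AGGAAG on either strand, and the CArG box of serum response factor.
Spred2: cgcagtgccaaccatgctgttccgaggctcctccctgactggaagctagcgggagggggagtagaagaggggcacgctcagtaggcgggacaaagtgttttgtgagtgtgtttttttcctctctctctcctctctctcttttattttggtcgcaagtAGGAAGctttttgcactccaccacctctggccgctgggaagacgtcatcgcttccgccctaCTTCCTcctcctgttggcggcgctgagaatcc
Spred3: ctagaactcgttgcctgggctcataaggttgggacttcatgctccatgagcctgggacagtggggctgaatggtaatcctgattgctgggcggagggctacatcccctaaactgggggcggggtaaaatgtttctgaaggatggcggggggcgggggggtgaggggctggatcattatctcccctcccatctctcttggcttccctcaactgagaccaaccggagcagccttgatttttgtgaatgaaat
Dusp5: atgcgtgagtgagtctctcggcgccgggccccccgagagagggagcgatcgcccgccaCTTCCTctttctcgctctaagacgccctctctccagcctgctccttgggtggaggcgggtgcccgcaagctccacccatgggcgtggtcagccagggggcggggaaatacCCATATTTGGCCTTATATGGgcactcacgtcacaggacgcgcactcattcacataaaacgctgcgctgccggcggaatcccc
Dusp6: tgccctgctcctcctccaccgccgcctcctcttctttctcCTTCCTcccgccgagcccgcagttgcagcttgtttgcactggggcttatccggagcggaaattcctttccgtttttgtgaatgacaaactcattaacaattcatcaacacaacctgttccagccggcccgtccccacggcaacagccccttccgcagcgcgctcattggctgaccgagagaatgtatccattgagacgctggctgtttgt
The Pea3 motif lay 93 and 32 bases before the start of Spred2, 192 bases before that of Dusp5 and 210 bases before that of Dusp6, and it was not found in the Spred3 window. Dusp5 alone of the members with a window had CArG boxes, at 82 and 72 bases before its start and side by side. Of 32851 windows of this length, 29.5% held AGGAAG and 1.47% held a CArG box, on either strand. Over the 9 windows found for 8 members, with 2 for Etv5, AGGAAG was in 3. The Ets site CCGGAAG, the E-box CACGTG, the AP-1 site TGANTCA, the Arid3-type site ATTAAA and the TATA box TATAAA were in none of them, on either strand, against 6.91%, 6.02%, 6.75%, 12.7% and 12.4% of all windows. The hypoxia response core occurred as ACGTG, which also lies within CACGTG, in the windows of Spred1, Dusp5 and Etv5 (16.6% of all windows) and as GCGTG in those of Spry1, Spred2 and Dusp5 (28.2% of all windows). The cyclic AMP response core TGACG was in the windows of Spred2 and Dusp5, and in 17.8% of all windows. A match describes letters only, and GC content, at 55.6% to 71.2% in the members' windows against a median of 52.4%, was not matched.

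Etv4 and Etv5 encode Ets factors of the Pea3 subfamily that carry FGF signals into transcription and act in limb patterning. The brighter Etv4 probe read 2.09, 2.07 and 1.81 in wild type and 2.18, 2.14 and 2.05 in Arid3b-null, from signals of 3594, 2578 and 2149 units against 2825, 2715 and 2771 units. The groups overlapped, and the change of 0.13 ± 0.12 (SE) did not pass (limma adjusted p = 0.457; 95% interval 0.900-fold to 1.33-fold). The dimmer Etv4 probe read -0.28, -0.31 and -0.50 in wild type and -0.15, -0.11 and 0.020 in Arid3b-null. There all Arid3b-null arrays were higher, but the change of 0.28 ± 0.11 (SE) did not pass either when all probes were tested (limma adjusted p = 0.119).

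Etv5 was the member with the smallest change. It read 2.87, 2.98 and 2.87 in wild type and 2.96, 3.17 and 2.72 in Arid3b-null, from signals of 6150, 4827 and 4465 units against 4857, 5543 and 4409 units. Arid3b-null replicate 3 was the lowest of all 6 arrays and replicate 2 the highest, so the groups overlapped. The means were 2.90 ± 0.065 and 2.95 ± 0.22 (SD, n = 3 each), and the change was 0.045 ± 0.14 (SE, limma adjusted p = 0.838; 95% interval 0.821-fold to 1.30-fold). Without Arid3b-null replicate 2 the change turned to -0.064.

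**Figure D2:**
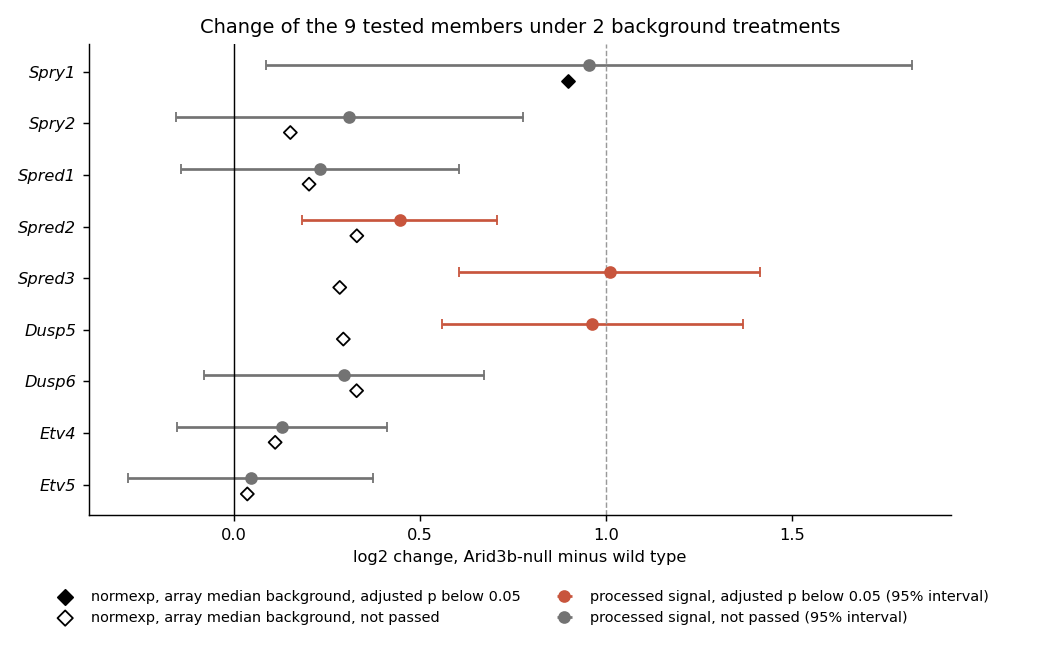
Log2 change (Arid3b-null minus wild type, horizontal axis) of the 9 tested members with its 95% interval, beside the change after normexp correction with the array's median background, and a dashed line at a 2-fold rise. All 9 changes are above 0, the intervals of Spry2, Spred1, Dusp6, Etv4 and Etv5 include 0, and the dim members Spred3 and Dusp5 move from near 1.01 and 0.96 to 0.28 and 0.29 after the other correction.

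The mean was higher in Arid3b-null for 9 of the 9 tested members, with a median change of 0.31 against -0.039 over all tested genes. That count includes Spred3 and Dusp5, which entered the test only through the group in which they were higher, and leaves out Spry4. With normexp on each spot's own background, Spry2, Spred3 and Dusp5 were lower in Arid3b-null (-0.78, -0.72 and -0.71). In 4 members (Spry1, Spred2, Spred3 and Dusp5) all Arid3b-null arrays were above all wild-type arrays, and in none were they all below. Over all tested genes the groups did not overlap in 46.1%, with Arid3b-null higher in 23% and lower in 23.1%. The share of tested genes with a larger rise was 3.91% for Spred3, 4.39% for Dusp5, 4.47% for Spry1, 16.2% for Spred2, 22.6% for Spry2, 23.5% for Dusp6, 27.7% for Spred1, 35.4% for Etv4 and 42.6% for Etv5. The places of Spred3 and Dusp5 hold for the processed signal only. With normexp on the array's median background their changes were 0.28 and 0.29. The 95% intervals of Spry1, Spred3 and Dusp5 include a 2-fold rise and those of the other 6 do not.

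The slides did not agree for every member. The median member difference was 0.43 on slide 1, 0.52 on slide 2 and 0.22 on slide 3. Spry1, Spred2, Spred3, Dusp5 and Etv4 were higher in Arid3b-null on all 3 slides, 5 of 9 members, where 29.3% of all tested genes were. Spry2, Spred1, Dusp6 and Etv5 were higher on slides 1 and 2 and lower on slide 3, by 0.28, 0.21, 0.056 and 0.15 on the log2 scale. Without Arid3b-null replicate 3 the median change of the 9 members was 0.50.

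The spread of the members within groups was compared by pairs. After each group's mean was taken off, the 6 arrays gave 23 positive and 13 negative correlations among 36 pairs of members. The highest were 0.97 for Dusp5 with Etv4, 0.96 for Spry2 with Spred1, 0.94 for Spred2 with Etv5, and 0.93 for Etv5 with Dusp6 and for Spred2 with Dusp6. The lowest was -0.84 for Spry2 with Spred3, followed by -0.72 for Spred1 with Spred3. These values rest on 6 arrays that share slides and scaling, and are given as a description. The wild-type deviations of Spred2 lay between -0.0059 and 0.0059, so its correlations rest almost only on the Arid3b-null arrays.

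The genes whose values over the 6 arrays were most like those of a member that rose were found by Pearson correlation, again as a description over 6 arrays that include the difference between groups. For Spred2 they were Emc9, Trit1 and Usp3 (0.999 each). For Spred3 they were Xrra1, Neil1 and Zfp78 (0.997 each). For Dusp5 they were Nfatc4 (0.999), Mamstr (0.999) and Fam241b (0.998).

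**Figure D3:**
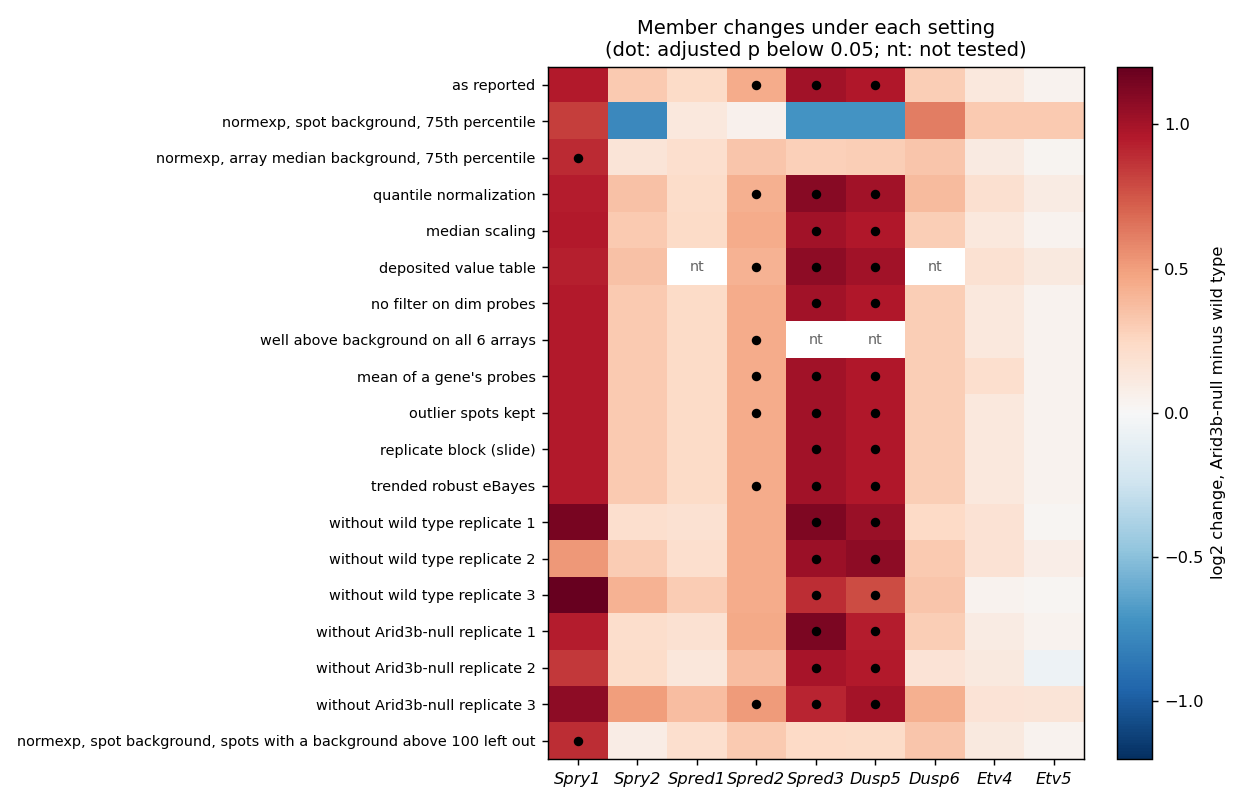
Log2 change of each member (columns) under each processing setting (lines of the grid), coloured from lower to higher in Arid3b-null, with a dot where the limma adjusted p was below 0.05 and nt where the member was not tested. Spred3 and Dusp5 keep their dots in most settings and lose them under the normexp corrections, while Spred2 loses its dot in 10 of 17 settings other than the spot background correction.

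The FGF ligands were measured as the signals upstream of the members. The ligand list also holds Fgf11, Fgf12, Fgf13 and Fgf14, which are not receptor ligands in the usual way, and its counts and median include them. Of the 22 listed genes 16 were tested, 5 rose, none fell and 11 did not pass, with a median change of -0.082. Fgf15, an FGF of the neural tube and hindbrain, read -1.85, -1.28 and -2.33 in wild type and -0.061, -0.28 and 0.17 in Arid3b-null, and rose 3.39-fold (1.76 ± 0.27, SE, limma adjusted p = 0.00583). Fgf9 rose 2.10-fold (1.07 ± 0.15, limma adjusted p = 0.00395), and Fgf10, the mesenchymal FGF that starts limb outgrowth, rose 1.79-fold (0.84 ± 0.11, limma adjusted p = 0.00364). All Arid3b-null arrays were above all wild-type arrays for these 3 ligands. Fgf3 was not well above background on any wild-type array, so it entered the test through the Arid3b-null arrays alone. It was at least 2.67-fold higher in Arid3b-null, with measured means of -6.78 and -4.79 (limma adjusted p = 0.00787). That bound holds for the processed signal only. Under other background corrections the Fgf3 change fell to 0.27, with limma adjusted p up to 0.231, and it turned negative with normexp on each spot's own background with all spots kept. For such a bound, any dim array counts at the faintest level that was well above background there, unless the probe itself read higher, and the Arid3b-null mean is set against the average of those levels. Fgf12, which stays inside the cell and does not act through FGF receptors in the usual way, rose 2.04-fold but passed the background limit on 2 of 3 wild-type arrays (limma adjusted p = 0.0251). With the array's median background and normexp, Fgf3 and Fgf12 no longer passed (limma adjusted p = 0.0812 and 0.140), and the Fgf12 call also ended when replicate 2 or 3 of either group was left out (limma adjusted p = 0.0585 to 0.0624). Fgf8, the FGF of the apical ectodermal ridge, the tail-end mesoderm and the isthmus, changed by 0.26 ± 0.16 and did not pass (limma adjusted p = 0.276).

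Among the receptors 6 of 7 genes were tested and 2 rose, with a median change of 0.25. Fgfr4 rose 1.81-fold (0.86 ± 0.14, SE, limma adjusted p = 0.00650) and Fgfr2, whose epithelial form receives FGF10 in the limb, rose 1.39-fold (0.47 ± 0.11, limma adjusted p = 0.0202). The Fgfr2 call was lost without wild-type replicate 1 (adjusted p = 0.0819), without Arid3b-null replicate 1 (0.0635) and without Arid3b-null replicate 3 (0.0535). Fgfr1, the main receptor of the mesenchyme, was higher on all 3 Arid3b-null arrays by 0.35 ± 0.11 and did not pass (limma adjusted p = 0.0596), though it passed after quantile normalization (0.46, adjusted p = 0.0303) and in the deposited table (0.46, adjusted p = 0.0390). Of 17 genes for heparan sulfate and FGF binding, 16 were tested, 4 rose and none fell. The glypican genes Gpc6, Gpc3 and Gpc4, cell-surface carriers of heparan sulfate, rose 1.66-fold, 1.45-fold and 1.43-fold (limma adjusted p = 0.00721, 0.0177 and 0.0162), and the syndecan gene Sdc4 rose 2.42-fold (limma adjusted p = 0.0150). The Sdc4 call was lost without Arid3b-null replicate 2 or 3 (limma adjusted p = 0.0519 and 0.0521), the Gpc4 call without wild-type replicate 1 (0.0682), and the Gpc3 call on leaving out replicate 1 or 2 of wild type or 2 of Arid3b-null (0.0691, 0.0524 and 0.0543).

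The relay from the receptor to ERK held genes of both directions. Of 22 tested genes 7 rose, 2 fell and 13 did not pass, with a median change of 0.20. Rps6ka3, a kinase that ERK activates, rose 1.66-fold (limma adjusted p = 0.00581), but its call was lost when the probes of a gene were averaged (adjusted p = 0.0571). Mapk3, the gene of ERK1, rose 1.58-fold (limma adjusted p = 0.0194), and the docking protein gene Gab1 rose 1.54-fold (limma adjusted p = 0.0155). Hras fell 1.56-fold, by 0.64 ± 0.11 on the log2 scale (SE, limma adjusted p = 0.00764). The other relay gene that fell was Map2k2, a kinase gene for activating ERK (1.33-fold lower, limma adjusted p = 0.0343), but its call was lost with the replicate number as a block (adjusted p = 0.0569) and without any 1 array other than wild-type replicate 3 (0.0564 to 0.110). For Mapk3, leaving out replicate 1 or 3 of wild type, or 2 or 3 of Arid3b-null, ended the call (limma adjusted p = 0.0512 to 0.0717).

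Of 19 tested genes on a list of other inhibitors and modulators of the pathway 3 rose, 1 fell and 15 did not pass. That is a share of 21.1% called. The list is not of inhibitors alone, since it holds Flrt2 and Flrt3, neither of which passed. Dusp9, a phosphatase of the same cytoplasmic subfamily as Dusp6, read 1.82, 1.83 and 1.601 in wild type and 0.91, 1.01 and 1.31 in Arid3b-null. It fell by 0.67 ± 0.14 on the log2 scale, or 1.59-fold (SE, limma adjusted p = 0.0169), and was lower on all 3 Arid3b-null arrays. Dusp4, a nuclear phosphatase of ERK, and Lrig3, a membrane protein that restrains receptor kinases, rose 1.499-fold and 1.498-fold (limma adjusted p = 0.0264 and 0.0227). Dusp10, which acts mostly on the stress kinases, rose 1.69-fold (limma adjusted p = 0.0463), a call lost with the replicate number as a block (adjusted p = 0.0781). With normexp its change was 0.31 on the array's median background (limma adjusted p = 0.117), 0.23 on each spot's own background without spots of a local background above 100 (0.328), and -0.64 when those spots were kept. Leaving out single arrays ended the calls of Dusp9 (each but replicate 3 of either group, limma adjusted p = 0.0510 to 0.0639), Dusp4 (each but Arid3b-null replicate 3, 0.0605 to 0.0894), Lrig3 (each but Arid3b-null replicate 3, 0.0561 to 0.0647) and Dusp10 (each but wild-type replicate 3, 0.0611 to 0.128), with the direction kept in these leave-outs.

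On the processed signal, the largest changes around ERK were among its early response genes, which are switched on within minutes of a stimulus. Of 25 tested genes in the list of other Ets factors and early response genes 8 rose, none fell and 17 did not pass. The list median was 0.25 and its lowest change was -0.60. Ier3 read -4.09, -3.73 and -3.94 in wild type and -0.075, -0.0039 and -0.21 in Arid3b-null, a 14.2-fold rise (3.82 ± 0.13, SE, limma adjusted p = 9.99e-05). Egr2 rose 8.65-fold (3.11 ± 0.46, limma adjusted p = 0.00496), but it passed the background limit on 1 of 3 wild-type arrays, and with the array's median background and normexp the change was 0.88. Fos was not well above background on any wild-type array, and was at least 2.90-fold higher in Arid3b-null, with measured means of -7.02 and -4.75 (limma adjusted p = 0.00318). That bound holds for the processed signal only: the Fos change was 0.47 with the array's median background and normexp, 0.38 with normexp on each spot's own background without spots of a local background above 100 (limma adjusted p = 0.106), and -0.65 when those spots were kept. Mycn rose 1.81-fold (0.86 ± 0.12, limma adjusted p = 0.00438). Etv1, the third factor of the Etv4 and Etv5 subfamily, rose 1.33-fold (0.41 ± 0.11, limma adjusted p = 0.0399). That call was lost with the replicate number as a block (adjusted p = 0.0647) and without any 1 array other than Arid3b-null replicate 3 (limma adjusted p = 0.0839 to 0.120).

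**Figure D4:**
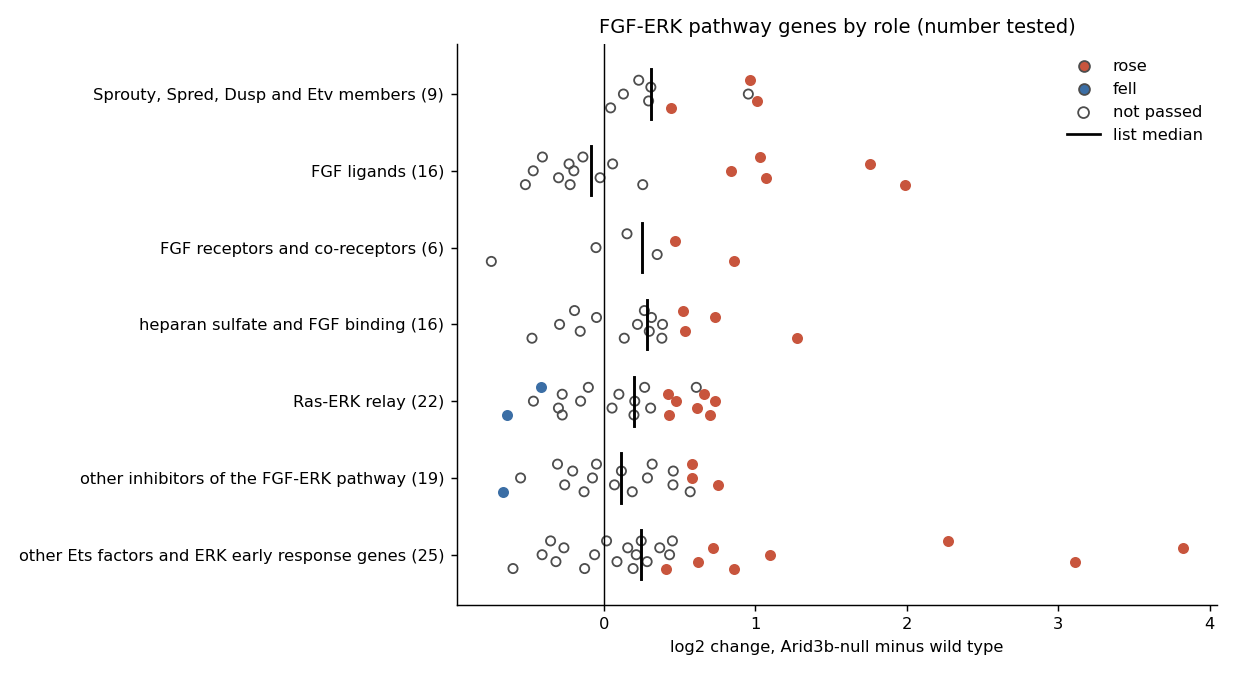
Log2 change (Arid3b-null minus wild type, horizontal axis) of each tested gene in 7 lists of the FGF-ERK pathway, filled where the gene rose or fell and open where it did not pass, with the list median as a bar. Members lie between 0.045 and 1.01, ligands split between open points around 0 and 5 that rose, and Ier3, Egr2 and Fos lie far to the right of all members. Egr2 passed the background limit on 1 wild-type array and Fos on none.

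In bulk tissue, fewer or more cells of a type and less or more RNA per cell cannot be told apart. Markers of the cell types that send or receive FGF signals were therefore summed in each array. The sums are of linear signals, so the brightest markers weigh most. Of 12 surface epithelium markers 8 rose, none fell and 4 did not pass, with Krt19 and Tfap2a the lowest in p. Their summed level was 27.0 to 39.7 in wild type and 60.4 to 71.5 in Arid3b-null, in units of the array's 75th percentile. The brightest of them, a keratin gene, had log2 means of 4.37 in wild type and 5.23 in Arid3b-null. Of 7 tested markers of the apical ectodermal ridge, where limb FGFs are made, 3 rose (Sp6 and Dlx5 among them). The other 4 did not pass, Fgf8 among them, and changes in this list ran from -0.42 to 0.90. In this list 1 more marker was not well above background, and the sums were 2.98 to 3.23 against 3.47 to 4.35. Of 8 forelimb mesenchyme markers 2 fell, Lhx9 and Lhx2, with sums that overlapped at 23.0 to 23.7 against 22.6 to 24.6. Presomitic mesoderm markers moved both ways, with 3 risen (Tbx6 and Cyp26a1 among them) and 2 fallen of 7 tested. Their sums were 2.29 to 2.47 against 2.36 to 2.60. The piece ended at somite 15, and how much presomitic mesoderm it held is not known from these data. Early neuron markers fell in 8 of 8, led by Ina and Elavl3, from 8.55 to 10.6 in wild type to 1.45 to 1.84 in Arid3b-null. Neural tube progenitor markers fell in 5 of 8, led by Dbx1 and Dbx2, with sums of 17.0 to 19.0 against 8.07 to 9.12. Hypoxia response genes rose in 12 of 12, led by Ndrg1 and Ero1a, with sums of 345 to 427 against 683 to 720. The part of any of these in the members' values was not tested.

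Other cell types of the trunk were measured in the same way. Somite markers fell in 3 of 7 tested (Pax1 and Pax9 among them), with sums of 18.1 to 19.9 against 15.4 to 18.7. Neural crest markers rose in 3 of 8, with Foxd3 among them, and fell in 1, with sums of 7.63 to 9.02 against 10.5 to 11.02. Erythroid markers fell in 3 of 8 (Klf1 and Gata1 among them), with sums of 572 to 755 against 456 to 544. Of 8 endothelial markers 1 rose, Tie1, a call lost with the replicate number as a block (adjusted p = 0.0508), while Esam did not pass. The sums were 25.8 to 30.3 against 27.8 to 32.3. None of 8 cardiac muscle markers passed, Myl2 and Actc1 included, with sums of 20.03 to 30.02 against 10.5 to 25.8.

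The label of the tissue was set against position markers. All 8 trunk Hox genes could be tested, so each passed the background limit throughout at least 1 group, and 2 of them fell, Hoxa4 and Hoxa5. The Hoxa4 call was lost without wild-type replicate 1 (limma adjusted p = 0.0510), and the Hoxa5 call on leaving out any array other than Arid3b-null replicate 1 (0.0619 to 0.128) and with normexp on the array's median background (0.0752). Of 8 head genes outside the dissected piece 4 were tested and 3 were not well above background on any array. Lhx2, which is also on the forelimb list, fell with a call that was lost with the replicate number as a block (adjusted p = 0.0535) and on leaving out any 1 array (limma adjusted p = 0.0593 to 0.140). Of 8 genes listed for hindlimb and tail 2 were tested, of which Hoxa11 fell and Pitx1 did not pass. Whether these genes were also expressed in the forelimb buds kept in the piece was not tested. The list therefore does not check where the dissection ended.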

How the data were processed

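RNA of 6 pools was hybridised to Agilent arrays in 1 colour. The authors' scans were read with Feature Extraction 10.7.3.1 (protocol GE1_107_Sep09; array design 026655; build mm9), per the file headers. The deposited processed signals are intensities on a linear scale, already background-subtracted by the scanner software. The authors' deposited value table holds log2 values of 24181 probes, with column medians of 6.77 each and a correlation of 0.999 to 1.00 with each array's log2 processed signal. It is not centred per gene, the sources used here do not state how it was normalized, and it served as an alternative.

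Of 44397 spots per array, 43020 were not controls and held 39429 probes. Accessions matched to a RefSeq table (GRCm38.p6, used for names and promoter windows only) named 26431 probes (67.0%) with 1 symbol and 12998 with none. The values used were log2 processed signal minus the array's 75th percentile of non-control spots, with outlier spots (100 to 169 per array) left out and spots of a probe averaged. Probes entered the test where some group had all 3 of its arrays well above background (24423 probes). A gene took its brightest tested probe (19795 genes). The tests were two-sided and used limma 3.58.1 (lmFit, eBayes; R 4.3.3). All p-values come from limma and were adjusted by Benjamini-Hochberg, with calls below 0.05. In the main fit they were adjusted over the 19795 genes (for the dimmer probes of Etv4 and Arid3b, over the 24423 probes). Each alternative was adjusted over the genes that it tested, such as 16564 in the deposited table and 32530 without the filter. "Rose" and "fell" mean past that threshold. Intervals are at 95%, and the number of arrays limits their precision.

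Same-numbered arrays shared a slide and deviated together (correlations of 0.16, 0.39 and 0.28), so the numbers pair arrays by slide. The main fit, which gave the errors, intervals and adjusted p-values unless stated otherwise, had no block for these pairs. The fit with that block was an alternative. The alternatives were other background corrections, scalings, filters, probe rules and spread models, the deposited table, the replicate block and leaving out each array. The mean signal column was not used for normexp, which took the median signal with an offset of 50. The fit was tested on simulated data.

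The members and lists were chosen with earlier results of these data known. Named genes were Arid3b, the members, up to 4 called genes of smallest adjusted p per pathway list, the ligands and receptors that passed, the 3 genes most correlated with each member that rose, and the 2 genes of smallest p per marker list, of which 2 in all are not reported here. Fgf8, Fgfr1, Map2k2 and Etv1 were named outside this rule, after their values were seen.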

Additional observations from a re-analysis of the deposited data

How the results depend on the processing

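The 3 member calls did not all hold under other processing. With normexp on each spot's own background, 2 genes rose and 0 fell over all genes (the median gene changed by -0.22), 0 members rose and the members' median was 0.12. Directions turned there for Spry2 (-0.78), Spred3 (-0.72), Dusp5 (-0.71), Fgf3 (-0.76), Fgf12 (-0.80), Gpc4 (-0.37), Gab1 (-0.023), Dusp10 (-0.64), Fos (-0.65), Egr2 (-0.17), Dlx5 (-0.28), Sp6 (-0.19), Xrra1 (-0.71), Neil1 (-0.48), Zfp78 (-0.63), Mamstr (-0.66) and Fam241b (-0.20). After the data were seen, the same correction was run without 30 spots of a local background above 100: 1 member rose, Spry1 (limma adjusted p = 0.0486). There 20.6% of all tested genes were called and 10.4% rose. Normexp with the array's median background likewise gave 1 member, also Spry1, where 22.9% of all tested genes were called and 11.9% rose. Requiring probes well above background on all 6 arrays gave 1, Spred2, since Spred3 and Dusp5 were then not tested. That filter called 26.9% of the genes it tested, and 13.9% rose. Without a filter on dim probes 1288 genes rose and 998 fell, among 32530 tested. Leaving out each array in turn gave 1660 to 2047 genes that rose (8.39% to 10.3% of those tested) and 1205 to 2038 that fell. Across these leave-outs 2 to 3 members rose, with a members' median of 0.22 to 0.50. In these the change of Etv5 ran from -0.064 to 0.16, and was below 0 without Arid3b-null replicate 2 alone. With the replicate number as a block 2428 genes rose and 2348 fell. Besides the calls given above, the block ended those of Emc9 (adjusted p = 0.0814) and Usp3 (0.0508) and made Myl2 pass (0.0367), and it changed no other call among the named genes. Spred2 also lost its call with median scaling (adjusted p = 0.0583), without the filter (0.107) and with each kind of normexp. The next counts are for 25 other pathway genes named as passing, and leave out normexp on each spot's own background. In every alternative that tested them 9 kept their call, and 16 lost it in at least 1. Egr2, among the 9, was not tested where all 6 arrays had to be well above background. Signals of Spry2, Spred3 and Dusp5 lay at 9.36 to 38.8 units, where the background correction limits any fold, and 3 arrays per group limit the rest.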
